A study of Drosophila melanogaster with 18 samples.

Results

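In newly eclosed Drosophila ovaries, 297 genes had less RNA in every library without emerin than in every wild-type library, whether the checkpoint kinase Chk2 was present or not. The level of each gene in a library was its CPM, the estimated count divided by the library total and multiplied by 1e6. A gene was taken when its highest CPM in the 4 emerin and 3 chk2, emerin libraries lay below its lowest CPM in the 7 wild-type libraries, and its wild-type mean was 1 CPM or more. The 297 genes are 3.37% of the 8814 genes that reached this mean, in a table of 14237 genes. The rule run in the other direction gave 52 genes. The genes were chosen by their CPM in the emerin, chk2, emerin and wild-type libraries, so the comparison of these libraries is given as a description and without a test.

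Emerin, encoded by the gene Ote, is a LEM-domain protein of the nuclear lamina, the protein network under the inner nuclear membrane. It binds Barrier-to-Autointegration Factor (BAF), a small protein that binds double-stranded DNA and links LEM-domain proteins to chromatin. Germline stem cells that lack emerin are lost, with activation of the DNA damage kinases ATR and Chk2, the latter encoded by lok. A comparison of emerin mutants with and without Chk2 asks which RNA differences remain when the checkpoint kinase is removed.

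The wild-type references were the strains Canton S (CS, 4 libraries) and yw (3 libraries). The emerin mutants were emerin G/PI and emerin G/PK, with 2 libraries each, which pair ote G, a Piggybac insertion, with ote PI, an amino acid substitution, or with ote PK, a premature stop, all null alleles in a yw background. The 3 chk2, emerin libraries carried the same G/PK pair together with chk2 P6/P30, a pair of alleles in which 5′ exons of lok are disrupted or deleted. The nosgal4 libraries (2) carried only the nos>gal4VP16 driver, which acts in germ cells, and the baf GLKD libraries (2) carried that driver with a short hairpin RNA against baf. Each library was made from about 100 pairs of whole ovaries, so germ cells and the somatic cells around them were measured together. No libraries lacked Chk2 alone, and the emerin G/PI pair was not combined with chk2. According to the sample labels baf GLKD flies were raised at 25 °C and all others at room temperature, so that knockdown and temperature cannot be told apart, although the methods give 25 °C for all crosses. Table totals ran from 18138657 to 28372959 counts per library.

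Ote itself was not among the 297 genes. It was at 57.5, 79.4 and 88.8 CPM for the lowest, median and highest wild-type library, and at 58.5 and 33.8 in emerin G/PI, 19.5 and 12.4 in emerin G/PK and 19.95, 22.5 and 21.4 in chk2, emerin. The single library emerin G/PI 1 kept Ote out, since it overlapped the lowest yw library. The gene baf was also outside the set, with 85.1 to 172 CPM in wild type. Its level in emerin, 76.2 to 99.9 CPM, overlapped wild type, while the chk2, emerin libraries, at 47.6, 73.1 and 69.2 CPM, were all below it.

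The 297 genes had a median of 61.5% of their wild-type mean in the 7 libraries without emerin, with a range from 15.4% to 84.1%. Over all 8814 genes the same median was 96.7%. Taken separately, the median was 58.7% in emerin and 65.7% in chk2, emerin, against 93.5% and 93.0% over all genes. Most of the reductions were moderate, since 213 of the 297 genes lay between 50% and 75% of wild type, 55 between 25% and 50%, and 4 below 25%. In bulk ovary RNA, fewer cells of a type and less RNA per cell cannot be told apart.

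Library by library, the median of the 297 genes lay between 88.6% and 121% of the wild-type mean in the 7 CS and yw libraries. It was 60.2% and 59.0% in emerin G/PI, 58.6% and 56.7% in emerin G/PK, and 59.2%, 71.1% and 65.9% in chk2, emerin. The 4 emerin libraries were thus close to each other, while the chk2, emerin libraries were spread more widely, as the plot of the library medians shows. Together the 297 genes took between 4.65% and 7.55% of all counts in wild type, 3.28% to 3.69% in emerin and 3.11% to 4.04% in chk2, emerin.

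**Figure D1:**
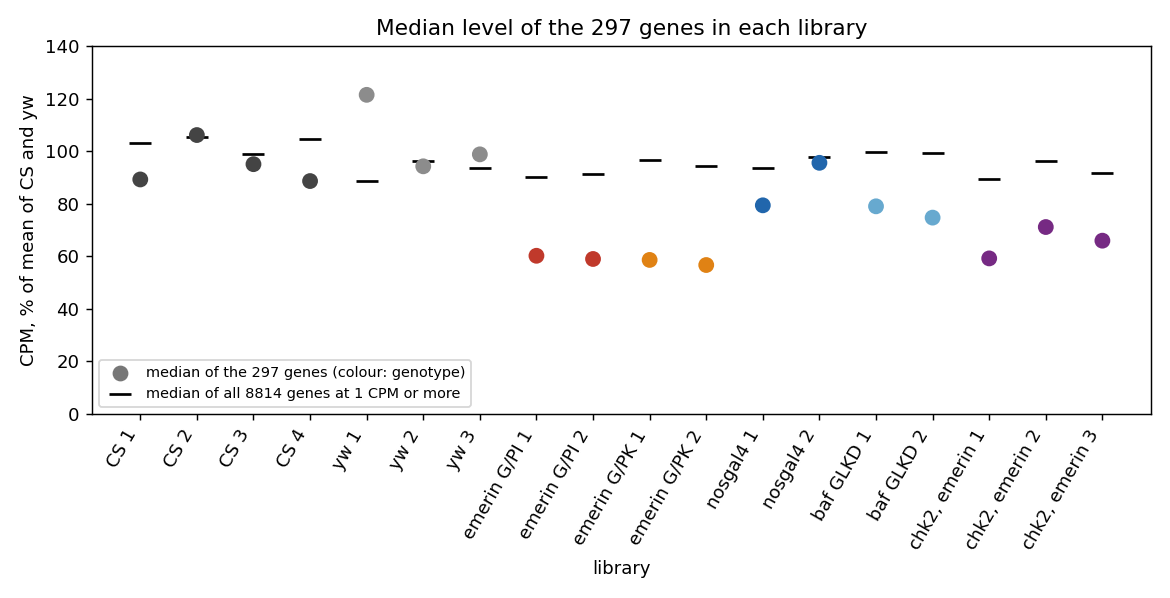
Median CPM of the 297 genes in each of the 18 libraries, as a percent of each gene's mean over CS and yw (points, coloured by genotype), with the median of all 8814 genes at 1 CPM or more (black bars). The 7 libraries without emerin sit between 56.7% and 71.1%, below the lowest wild-type library at 88.6%, while the medians of all genes lie between 88.7% and 105% in all 18.

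For many of the genes the margin was narrow. The highest library without emerin stood at a median of 0.93 of the lowest wild-type library, and in 114 genes this ratio was 0.95 or more. A ratio under 0.75 was found in 18 genes, with l(1)G0289 at the lowest value, 0.54. The library that set the upper edge was chk2, emerin 2 in 131 of the 297 genes, and the lowest wild-type library was CS 1 in 90 genes and CS 4 in 81. Just inside the rule were CG11279, Rrp47, a cofactor of the nuclear exosome, and SmD2, a core protein of the spliceosomal snRNPs, and just outside were CG5823, CG7988 and CG2617. SmD2 had a lowest wild-type level of 135.4 CPM in CS 1 and a highest level without emerin of 135.3 CPM in chk2, emerin 2, whereas CG7988 had 9.22 CPM in yw 1 and 9.23 CPM in chk2, emerin 2.

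Considered singly, 1935 genes were below all wild-type libraries in the 4 emerin libraries, which is 22% of the 8814 genes, and 1074 genes, or 12.2%, in the 3 chk2, emerin libraries. Both comparisons use the same 7 wild-type libraries. Within the 297 genes, the emerin libraries were all below the chk2, emerin libraries in 71 genes (23.9%), against 32.1% of the 8814 genes. The reverse, all chk2, emerin libraries below all emerin libraries, was seen in 12 genes (4.04%), against 36.2% of the 8814 genes. In the other 214 genes the ranges of emerin and chk2, emerin overlapped. The values of these libraries chose the genes, so nothing is read from these counts.

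GstE14, a glutathione S-transferase that acts in the synthesis of the steroid hormone ecdysone, was the most reduced of the 297 genes in emerin. It had 30.7, 36.1 and 49.6 CPM as the lowest, median and highest wild-type values, 11.1 and 5.04 CPM in emerin G/PI, 1.84 and 1.38 CPM in emerin G/PK and 17.3, 16.6 and 16.5 CPM in chk2, emerin. Its level was 12.9% of wild type in emerin and 44.5% in chk2, emerin, and the mutant groups did not overlap. CycJ, a cyclin expressed in the ovary, showed the widest ratio of chk2, emerin to emerin, 3.52. It had 47.9, 49.8 and 64.8 CPM in wild type, 17.9 and 10.6 CPM in emerin G/PI, 9.30 and 5.62 CPM in emerin G/PK and 32.7, 44.9 and 36.9 CPM in chk2, emerin, so that each mutant group was distinct. CG12744 had 90.0, 104 and 128 CPM in wild type, 30.7 and 29.98 CPM in emerin G/PI, 22.9 and 20.6 CPM in emerin G/PK and 69.9, 84.6 and 71.3 CPM in chk2, emerin. For all 3 genes the level was lowest without emerin alone and intermediate without both proteins.

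The kinase gene lok, which encodes Chk2, is 1 of the 12 genes that were lower in chk2, emerin. It had 206, 228 and 244 CPM in wild type, 120 and 64.9 CPM in emerin G/PI, 66.8 and 58.1 CPM in emerin G/PK and 14.8, 15.2 and 13.3 CPM in chk2, emerin. In chk2, emerin the gene itself is mutated, so its place in the set rests on its genotype there, and only its level in emerin, 34.5% of wild type, is that of an intact gene. The gap between the emerin and wild-type values ran from 120 to 206 CPM. It held both baf GLKD libraries, at 152 and 154 CPM, and no nosgal4 library. The nearest genes of the set were Hs2st, Nthl1 and CG17343, the 3 among the 136 expressed genes within 1000 kb (2.21%), and 9 of 283 lay within 2000 kb (3.18%), close to the share over all genes.

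Of the other genes lower in chk2, emerin, pinta, which encodes a retinoid-binding protein of the eye, had 19.2, 21.9 and 27.9 CPM in wild type, 18.8 and 17.97 CPM in emerin G/PI, 14.4 and 14.6 CPM in emerin G/PK and 4.997, 5.66 and 5.43 CPM in chk2, emerin. It was only just below wild type in emerin G/PI and reached 23.6% of wild type in chk2, emerin. CG43954 had 35.2, 61.4 and 77.8 CPM in wild type, 19.5 and 32.1 CPM in emerin G/PI, 31.4 and 30.3 CPM in emerin G/PK and 16.2, 18.04 and 19.2 CPM in chk2, emerin.

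**Figure D2:**
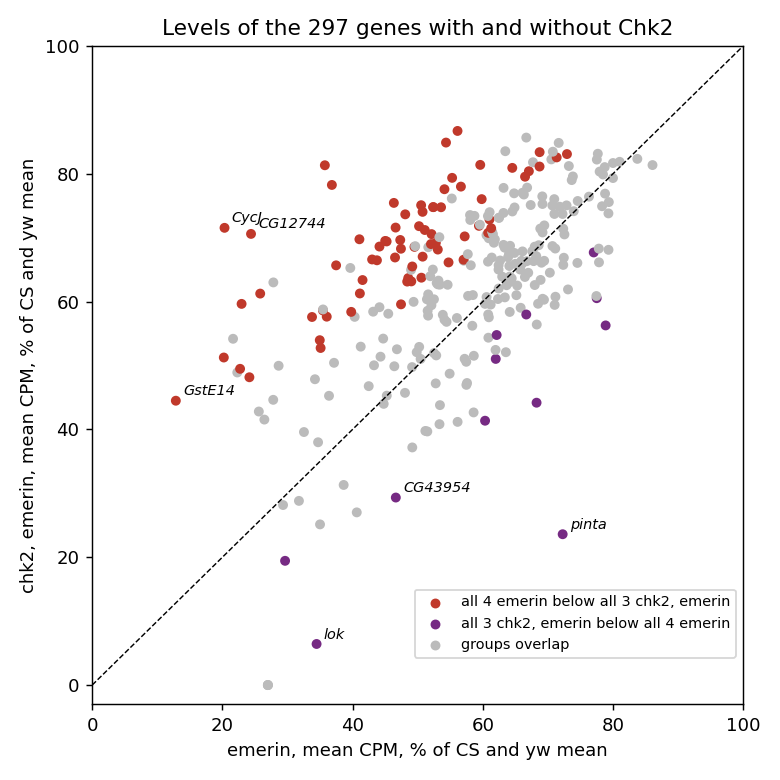
Mean CPM of each of the 297 genes in emerin (horizontal axis) and in chk2, emerin (vertical axis), both as a percent of the mean of CS and yw, with the dashed line at equal values. Red points are the 71 genes with all 4 emerin libraries below all 3 chk2, emerin libraries, purple points are the 12 genes with the reverse order, and grey points are the 214 genes whose ranges overlap.

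The pseudogenes CR43211, CR43213 and CR43216 on the X chromosome were the most reduced of all at 15.4% of wild type, but they carry identical values in every library and count as a single measurement. They had 34 to 88 estimated counts in the wild-type libraries, 45 and 17 in emerin G/PI, 1 and 0 in emerin G/PK, and 0 in each chk2, emerin library, where a count of 0 allows up to 3 counts per library. The libraries that carry the ote G/PK pair were thus at 0 or 1 with and without Chk2, and those with G/PI were not. CG30100 with CG42372, and sloth1 with sloth2, were likewise identical, which leaves 293 distinct rows of values. Another gene of the table overlapped 147 of the 297 genes, on the opposite strand in 129, and the strand setting of the counting is not given in the sources used here, so the level of these genes is uncertain. Of the genes given library by library here, lok, CycJ, CG12744, CG43954, Nop10, RpL30, CycC, Spc25, Hus1-like, Mettl14, CycK, Lst8, row and SmD2 are among these 147.

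Between the emerin pairs, the G/PI libraries were above the G/PK libraries in 103 of the 297 genes (34.7%), against 17.7% of the 8814 genes, and below in 39 (13.1%), against 27.1%. Between the wild-type strains, CS was above yw in 9 genes (3.03%), against 15.2%, and below in 28 (9.43%), against 7.35%. The CS and yw values were used by the rule, so nothing is read from these counts.

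Across the most reduced genes with a wild-type mean of 5 CPM or more, which were lok, GstE14, Nop10, CG7675, CG32037, CG32625, CG12112, l(1)G0289, zyd and CG43954, the order of the emerin libraries varied. The gene l(1)G0289 had the cleanest separation, with 382, 435 and 477 CPM in wild type, 205 and 162 CPM in emerin G/PI, 96.3 and 86.6 CPM in emerin G/PK and 195, 164 and 144 CPM in chk2, emerin. Its highest level without emerin was less than its lowest wild-type level by a wide margin. Nop10, a subunit of the H/ACA particles that modify ribosomal RNA, had 66.5, 135 and 188 CPM in wild type, 42.9 and 52.1 CPM in emerin G/PI, 41.8 and 38.9 CPM in emerin G/PK and 17.5, 53.7 and 48.4 CPM in chk2, emerin. Its chk2, emerin 1 library was well below the other libraries. The gene zyd, which encodes a sodium and calcium exchanger known from glia, had 37.8, 44.3 and 66.7 CPM in wild type, 25.3 and 11.2 CPM in emerin G/PI, 7.19 and 3.69 CPM in emerin G/PK and 30.1, 28.7 and 33.5 CPM in chk2, emerin. Its emerin G/PI 1 library was well above the other emerin libraries.

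**Figure D3:**
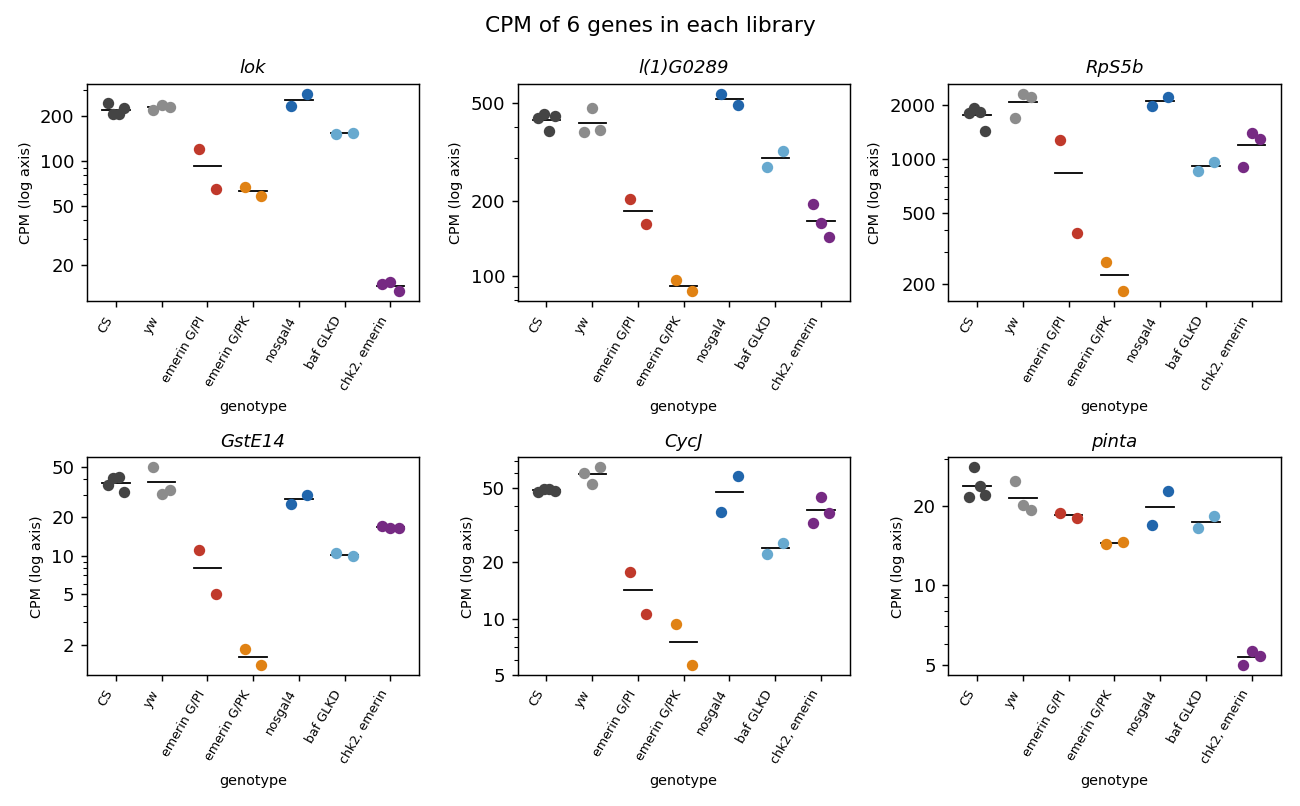
CPM of lok, l(1)G0289, RpS5b, GstE14, CycJ and pinta in each library (points, 1 per library, on a logarithmic axis that differs between panels), by genotype, with the group mean as a bar. In each panel the 7 libraries without emerin lie below the 7 CS and yw libraries, with pinta and lok lowest in chk2, emerin and the other genes lowest in emerin G/PK.

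Gene families were assigned by symbol after the values were seen and carry no test, and each count is set against the 3.37% of all expressed genes. Several families are short, and short genes were in the set more often. The median transcript length was 588 bases for Sm and LSm proteins, 644 for cytosolic and 739 for mitochondrial ribosomal proteins. It was 862.5 for augmin subunits and 2558 for cyclins. Of all expressed genes, 13.4% were in the set under 600 bases and 8.24% from 600 to under 1000 bases. Ribosomal proteins of the cytosol form the largest group, with 20 of 83 expressed genes in the set (24.1%), and the 19 genes of the set at 1000 CPM or more were of this family. The most abundant was RpS3A, a protein of the small subunit, with 3097, 4368 and 5818 CPM in wild type, 2278 and 2372 CPM in emerin G/PI, 2078 and 2074 CPM in emerin G/PK and 2705, 3080 and 2968 CPM in chk2, emerin. The highest chk2, emerin library lay just under the lowest wild-type library. RpL30, of the large subunit, was further apart, with 1582, 2043 and 3667 CPM in wild type, 1234 and 1213 CPM in emerin G/PI, 1139 and 1108 CPM in emerin G/PK and 635, 1156 and 1095 CPM in chk2, emerin.

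RpS5b, the copy of ribosomal protein S5 that is used in the ovary, had the lowest percent of wild type in emerin among the 20. It had 1439, 1842 and 2331 CPM in wild type, 1286 and 384 CPM in emerin G/PI, 266 and 181 CPM in emerin G/PK and 909, 1392 and 1292 CPM in chk2, emerin. Its mean in emerin was 27.8% of wild type, and the 20 ribosomal protein genes spanned 27.8% to 77.8% in emerin and 43.8% to 73.7% in chk2, emerin. The emerin G/PI 1 library was far above the other 3 emerin libraries and within the range of chk2, emerin.

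Other families followed with smaller counts. Of the 13 expressed Sm and LSm proteins, which form rings on small RNAs in splicing and decay, 5 were in the set (38.5%), namely SmD2, SmE, SNRPG, LSm3 and Lsm12a. SNRPG had 127, 173 and 259 CPM in wild type, 72.3 and 79.0 CPM in emerin G/PI, 76.0 and 73.7 CPM in emerin G/PK and 61.6, 99.9 and 99.4 CPM in chk2, emerin. RNA polymerase subunits gave 5 of 30 (16.7%), Polr2G, Polr2J, Polr2K, Polr3G and Polr3I. The summed level of this family was 1204 to 1357 CPM in emerin, below the 2077 to 2536 CPM of wild type. In chk2, emerin the sum was above wild type, at 2628 to 2805 CPM. Mitochondrial ribosomal proteins gave 5 of 73 (6.85%), mRpL27, mRpL33, mRpL55, mRpS11 and mRpS28. The gene tko, which encodes a further mitochondrial ribosomal protein under another kind of symbol, was in the set too, with 57.8, 85.6 and 116 CPM in wild type, 37.4 and 29.1 CPM in emerin G/PI, 23.7 and 21.3 CPM in emerin G/PK and 36.8, 39.4 and 40.8 CPM in chk2, emerin. Proteasome subunits gave 2 of 34 (5.88%), COP9 signalosome subunits 2 of 7 (28.6%), UDP-glycosyltransferases 1 of 16 (6.25%) and cytochromes P450 none of 53. In emerin the family medians were 86.7% of wild type for proteasome subunits, 72.55% for COP9 signalosome subunits and 280% for UDP-glycosyltransferases. In chk2, emerin they were 102%, 92.9% and 91.6% in the same order.

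Several of the genes act in chromosome segregation and cell division, and others are cyclins, not all of which act there. Of the 9 expressed genes assigned by symbol to augmin, the complex that nucleates microtubules within the spindle, 4 were in the set (44.4%). They were dgt2, dgt4, msd1 and msd5, at 50.4% to 63.2% of wild type. Cyclins gave 3 of 12 (25%), CycC, CycJ and CycK. Of these, CycC belongs to the Mediator complex of transcription, and CycK is a partner of kinases that act on RNA polymerase II. The median of the 12 was 64.8% of wild type in emerin and 104% in chk2, emerin. CycC had 22.8, 24.9 and 29.99 CPM in wild type, 18.7 and 22.7 CPM in emerin G/PI, 19.1 and 20.1 CPM in emerin G/PK and 16.9, 20.4 and 19.0 CPM in chk2, emerin, and its kinase partner in the Mediator complex, Cdk8, was also in the set, at 73.8% of wild type. Named after their values were seen, the set also held the kinetochore proteins Spc25 (53.5% of wild type) and Nnf1a (54.6%), the spindle checkpoint protein mad2 (64.9%), the cohesin protector mei-S332 (70.8%) and the replication regulator geminin (68.2%). Spc25 had 14.3, 16.8 and 24.4 CPM in wild type, 7.15 and 8.31 CPM in emerin G/PI, 8.06 and 8.49 CPM in emerin G/PK and 13.3, 11.5 and 11.7 CPM in chk2, emerin.

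Proteins of chromatin and transcription were present as well. Of the 21 expressed histone-fold and SAGA or ATAC subunits, 6 were in the set (28.6%), Chrac-14, Chrac-16, Taf11, e(y)2, Atac1 and Ada2a, at 50.9% to 62.3% of wild type. The median of the 21 was 70.55% of wild type in emerin and 88.3% in chk2, emerin. Among genes named after their values were seen were HipHop (49.3%) and cav (64.8%), which cap telomeres, the insulator proteins BEAF-32 (72.0%) and Ibf2 (50.8%), and E2f2 (69.2%) and lin-52 (60.1%) of the repressive Myb-MuvB complex. HipHop had 67.5, 72.0 and 90.3 CPM in wild type, 34.7 and 32.6 CPM in emerin G/PI, 39.4 and 35.2 CPM in emerin G/PK and 29.3, 47.4 and 42.9 CPM in chk2, emerin, which left a clear gap to wild type. Glutathione S-transferases gave 3 of 25 (12%), GstE14, GstE6 and GstT1, but the family as a whole was not lower in emerin. Its median was 135% of wild type in emerin and 72.5% in chk2, emerin. Its summed level was 1739 to 2217 CPM in emerin, above the 1045 to 1429 CPM of wild type.

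Lists of known pathways and cell types show which genes were not in the set. The DNA damage checkpoint list gave 3 of 14 (21.4%), lok, mus304, the partner of the kinase ATR, and Hus1-like, a subunit of the checkpoint clamp. This count includes lok, which is mutated in chk2, emerin, so that its place rests on its genotype there. Hus1-like had 9.66, 10.8 and 15.5 CPM in wild type, 6.62 and 6.01 CPM in emerin G/PI, 6.97 and 7.17 CPM in emerin G/PK and 5.49, 6.23 and 4.69 CPM in chk2, emerin, without overlap to wild type. Its nosgal4 libraries, at 7.77 and 7.50 CPM, were also below every CS and yw library. Genes of meiosis gave 2 of 17 (11.8%), mei-W68, which makes meiotic breaks, and nenya, which acts in recombination. The list of p53 and irradiation response gave 1 of 9 (11.1%), Corp, an inhibitor of p53. Of these genes mus304, Hus1-like, mei-W68, nenya and Corp were not called in baf GLKD by edgeR (adjusted p = 0.172, 0.439, 0.501, 0.418 and 0.0741). Over the whole lists, 6 of 14 checkpoint genes and 3 of 17 meiosis genes were called lower, against 8.28% of all genes tested. Of the 12 p53 and irradiation response genes tested, 1 was called lower and 3 higher. The nuclear lamina list (11 expressed genes), the oocyte polarity and mRNA localization list (15) and the JNK list (13) had no member in the set.

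None of the 27 expressed germ line markers was in the set, although 19 of them were below all wild-type libraries in emerin. In chk2, emerin none of the 27 was below wild type, and the median of the list was 37.3% of wild type in emerin and 113% in chk2, emerin. The summed level of the list was 3834 to 5067 CPM in wild type, 1879 to 2359 CPM in emerin, 5092 to 5885 CPM in chk2, emerin, 4679 to 5093 CPM in nosgal4 and 3276 to 3335 CPM in baf GLKD. None of the 27 markers was without a count in all libraries of any group. The summed level of the muscle sheath list was 4373 to 9800 CPM in wild type, 34304 to 42095 CPM in emerin and 5240 to 6340 CPM in chk2, emerin. Escort, cap and terminal filament cells, hemocytes, fat body and trachea also had a higher summed level in all emerin libraries than in all wild-type libraries, with those of chk2, emerin within the wild-type range. The sums for follicle cells, neurons, gut proteases and antimicrobial peptides overlapped between emerin and wild type, Y-linked genes did not reach 1 CPM, and none of these lists had a member in the set. The part of cell makeup in the levels of the 297 genes was not tested.

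The genes of the set were short. Their mean transcript length had a median of 1008 bases, against 1910 bases over all expressed genes. The share of genes in the set was 13.4% under 600 bases (57 of 425), 8.24% from 600 to under 1000 bases, 5.27% from 1000 to under 1500 bases, 2.21% from 1500 to under 2500 bases and 0.229% at 2500 bases or more (7 of 3059). The libraries differed in their trend with length. Between transcripts of 500 and 5000 bases, the log2 trend differed by -0.53 to 1.08 in the wild-type libraries and by -0.05 to 0.10 in the emerin libraries. In the chk2, emerin libraries it differed by -1.18, -0.44 and -0.57. A lower value means that short transcripts were lower, relative to long ones, than in a library with a higher value. The values serve only to compare libraries, and do not give the levels of short and long transcripts within a library. The share of genes below all wild-type libraries moved from 42.1% in the shortest bin to 1.5% in the longest in chk2, emerin, and from 22.1% to 18.4% in emerin.

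**Figure D4:**
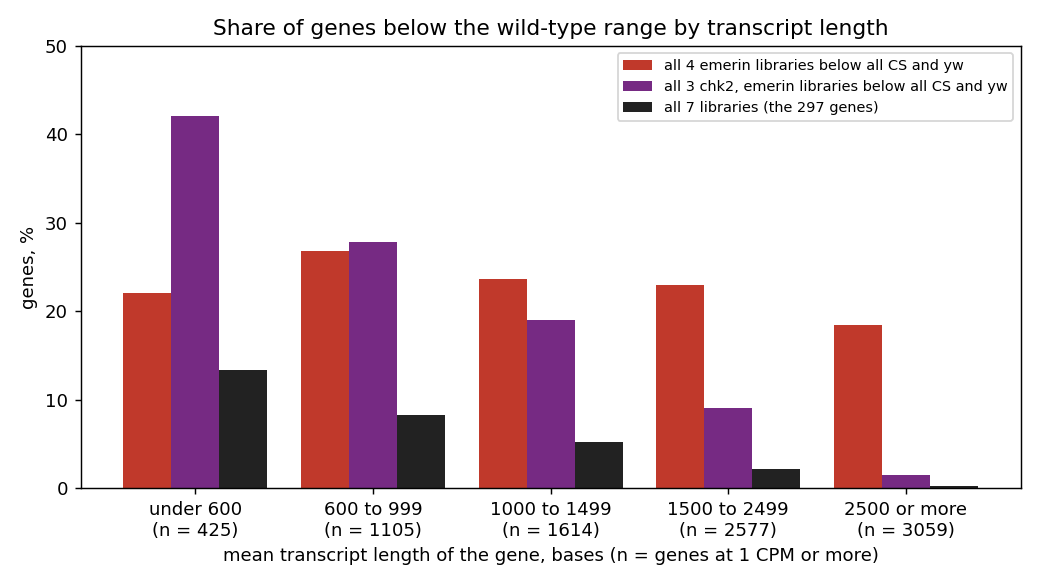
Share of the genes at 1 CPM or more, in percent, that were below all 7 CS and yw libraries in the 4 emerin libraries (red), in the 3 chk2, emerin libraries (purple) and in all 7 (black), in 5 bins of mean transcript length. The black bars go from 13.4% of 425 genes in the shortest bin to 0.229% of 3059 genes in the longest, and the purple bars from 42.1% to 1.5%.

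The scale on which levels are set against each other, and the table they come from, decided much of the membership. With TMM-scaled CPM 229 genes met the rule, of which 186 were among the 297, and with TPM summed from the transcript tables only 31 did, of which 26 were among the 297. When the trend with length was removed from each library, a choice made after the data were seen, 131 genes met the rule and 86 of them were among the 297. The mean without emerin nevertheless stayed below the wild-type mean in 297 genes with TMM, in 294 with TPM and in 296 after removal of the trend, with medians of 60.8%, 75.1% and 72.3% of wild type. Over all expressed genes the median was 115% with TPM. The transcript tables total far less than the gene table in 7 libraries, 4 of them wild type. Scale and depth therefore cannot be told apart in the TPM values. Of the 20 ribosomal proteins, 10 met the rule under TMM, 2 under TPM and 1 after removal of the trend. None of the 3 cyclins and neither proteasome subunit did so under TMM or TPM. After removal of the trend, none of the 5 Sm and LSm proteins and 1 of the 4 augmin subunits met the rule. So did 2 of the 3 glutathione S-transferases and all 3 genes of the DNA damage checkpoint list, among them lok, which is mutated in chk2, emerin. The part of transcript length in these levels was not tested.

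Under all 6 scales tried (CPM, TMM, RLE, counts and TPM summed from the transcript tables, and CPM without the length trend), 17 of the 297 genes met the rule. The scales made from the transcript tables also carry the lower totals of 7 libraries. They were lok (mutated in chk2, emerin), GstE14, l(1)G0289, HipHop, Hus1-like, tko, RpL30, Yeti, Nthl1, Arl6IP1, Pdrg1, bdwf, m, CG12112, CG30403, CG32625 and CG9265. Their median level without emerin was 45.3% of wild type in CPM and 53.7% in TPM. Yeti, a chromatin protein, had 162, 230 and 331 CPM in wild type, 95.9 and 117 CPM in emerin G/PI, 113 and 107 CPM in emerin G/PK and 104, 114 and 106 CPM in chk2, emerin. Nthl1, a DNA glycosylase of base excision repair, had 13.2, 15.3 and 17.7 CPM in wild type, 8.84 and 9.71 CPM in emerin G/PI, 11.1 and 8.93 CPM in emerin G/PK and 8.68, 11.6 and 7.47 CPM in chk2, emerin. In both genes all mutant libraries were similar and below every wild-type library. Only the CPM scale placed 63 of the 297 genes in the set.

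The nosgal4 libraries carry wild-type emerin. Both were above all 7 libraries without emerin in 190 of the 297 genes (64%), against 12.7% of the 8814 genes. The genes were chosen for low values in these same 7 libraries, so nothing is read from this difference. The median level in nosgal4 was 87.8% of the CS and yw mean, against 95.7% over all genes. Both nosgal4 libraries were within the range of CS and yw in 110 genes (37%), against 57.0%, and both were below it in 26 genes (8.75%), against 4.32%. The 2 libraries differed, with a median of 79.4% of wild type in nosgal4 1 and 95.5% in nosgal4 2, and without nosgal4 1 the count above all libraries without emerin was 288 instead of 190.

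Among the genes described above, lok had 233 and 283 CPM in nosgal4, l(1)G0289 had 545 and 491 CPM, and RpS5b had 1983 and 2238 CPM. All these values were above every library without emerin. GstE14 had 25.7 and 30.1 CPM, just below its lowest wild-type library and above the highest library without emerin. RpL30 had 1306 and 1867 CPM, so that 1 of its nosgal4 libraries was below the lowest wild-type library.

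The comparison of baf GLKD with nosgal4 asks whether a hairpin against the partner of emerin in germ cells goes with lower levels of the same genes. The gene baf itself had 81.2 and 109 CPM in nosgal4 and 73.8 and 77.3 CPM in baf GLKD, and was not called lower (log2 fold change -0.50, SE 0.31, edgeR adjusted p = 0.262). These are levels in whole ovaries, germ cells and somatic cells together. Its fold changes rest on 4 libraries that the rule did not use, while its standard errors draw on all 18 libraries, those that chose the genes included. By edgeR's quasi-likelihood test with Benjamini-Hochberg adjustment, 24 of the 297 genes were called lower in baf GLKD at an adjusted p under 0.05 (8.08%), against 8.28% of the 12762 genes tested and 11.9% of the 8814 expressed genes. None was called higher, against 13.3% of the genes tested, with none higher at an unadjusted p under 0.05 and none by DESeq2. The share called lower was thus close to that of all genes tested and below that of the expressed genes, from which the set was drawn. With only the 4 compared libraries in the fit 26 genes were called lower (8.75%), against 8.57% of the genes tested, and 14 of them were among the 24. It was 33 (11.1%) with DESeq2, against 9.09%, and 53 (17.8%) with strains and emerin pairs as separate groups, against 11.9%. The median log2 fold change of the 297 genes was -0.33, against 0.11 over all genes tested and -0.12 over the expressed genes. The genes compared include those raised in emerin, which the rule leaves out. The fold change was below 0 in 284 of the 297 genes, and in 232 when libraries were scaled by their total alone, where the median of all genes tested was 0.29.

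The number of calls depended on single libraries. It was 5 without nosgal4 1, 2 without nosgal4 2, 0 without baf GLKD 1 and 6 without baf GLKD 2, where 1.84%, 2.67%, 0.700% and 3.55% of all genes tested were called lower. In plain CPM, the higher baf GLKD library was below the lower nosgal4 library in 115 of the 297 genes (38.7%), against 30.3% of the 8814 genes, and the reverse held in 7 (2.36%), against 37.7%. The count of 115 was 230 without nosgal4 1 and 183 without baf GLKD 1.

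The 5 genes with the smallest adjusted p were CG12744, CG5149, Lst8, Sld5 and row. CG12744 had 72.6 and 90.8 CPM in nosgal4 and 45.2 and 51.7 CPM in baf GLKD, and fell by 0.92 on the log2 scale (SE 0.21, edgeR adjusted p = 0.0061). Sld5, a subunit of the GINS complex of DNA replication, had 25.5 and 32.8 CPM in nosgal4 and 16.1 and 16.6 CPM in baf GLKD, and fell by 1.00 (SE 0.26, edgeR adjusted p = 0.0131). For both genes the pairs of libraries did not overlap. Lst8, a component of the TOR kinase complexes, had 77.2 and 79.7 CPM in nosgal4 and 59.2 and 53.8 CPM in baf GLKD (log2 fold change -0.65, SE 0.16, edgeR adjusted p = 0.0122). CG5149 had 91.1 and 92.7 CPM in nosgal4 and 59.4 and 56.0 CPM in baf GLKD (log2 fold change -0.84, SE 0.21, edgeR adjusted p = 0.0118). The gene row, which encodes a zinc finger protein of euchromatin, had 182 and 175 CPM in nosgal4 and 122 and 131 CPM in baf GLKD (log2 fold change -0.67, SE 0.17, edgeR adjusted p = 0.0134).

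Of the genes described earlier, lok fell from 233 and 283 CPM in nosgal4 to 152 and 154 CPM in baf GLKD (log2 fold change -0.92, SE 0.27, edgeR adjusted p = 0.0251). CycJ fell from 37.4 and 57.8 CPM to 22.3 and 25.3 CPM (log2 fold change -1.16, SE 0.38, edgeR adjusted p = 0.0403). The other cyclin called lower was CycK, a partner of the kinases that act on RNA polymerase II, from 110 and 137 CPM to 87.8 and 105 CPM (log2 fold change -0.53, SE 0.16, edgeR adjusted p = 0.0321). The gene l(1)G0289 fell from 545 and 491 CPM to 276 and 320 CPM (log2 fold change -0.97, SE 0.32, edgeR adjusted p = 0.0422). For each of these 4 genes the pairs of libraries did not overlap. The calls of CycJ and l(1)G0289 were lost with RLE, with library size only, with the replicate block and without any 1 of the 4 libraries, where their edgeR adjusted p was 0.0534 to 0.25 and 0.0595 to 0.207. The call of lok was lost without any 1 of the 4 libraries (edgeR adjusted p = 0.0604 to 0.138).

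GstE14 had the values 10.4 and 9.88 CPM in baf GLKD against 25.7 and 30.1 CPM in nosgal4, without passing the test (log2 fold change -1.63, SE 0.64, edgeR adjusted p = 0.0783). It passed with only the compared libraries in the fit (edgeR adjusted p = 0.0122), with strains and emerin pairs as separate groups (0.0024) and by DESeq2 (adjusted p = 0.0468). RpS5b had 863 and 969 CPM against 1983 and 2238 CPM (log2 fold change -1.37, SE 0.63, edgeR adjusted p = 0.134). In both genes the pairs of libraries did not overlap, while the standard errors, which draw on all 18 libraries, were large. No ribosomal protein, Sm or LSm protein or RNA polymerase subunit of the set was called in either direction. Over the whole families, 10 of 30 RNA polymerase subunits and 11 of 73 mitochondrial ribosomal proteins were called lower, against 8.28% of all genes tested. None of 85 cytosolic ribosomal proteins and none of 13 Sm and LSm proteins was called. RpL30 had 1732 and 1416 CPM in baf GLKD and 1306 and 1867 CPM in nosgal4 (log2 fold change -0.18, SE 0.38, edgeR adjusted p = 0.765), and these pairs overlapped.

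Split by transcript length, the median log2 fold change in baf GLKD was -0.25 for genes of the set under 600 bases, against 0.25 for the other expressed genes of that length. It was -0.32 against -0.08 from 600 to under 1000 bases, -0.37 against -0.11 from 1000 to under 1500 bases, -0.46 against -0.12 from 1500 to under 2500 bases and -0.45 against -0.11 at 2500 bases or more. The calls of lower level were 0 of 57, 5 of 91, 4 of 85, 13 of 57 and 2 of 7 in the same order of bins, or 0%, 5.49%, 4.71%, 22.8% and 28.6%, against 0%, 1.68%, 7.13%, 16.2% and 16.1% of the other genes. The median of the set was thus lower than that of genes of similar length in each bin, as a description over genes that share the same 4 libraries. The other genes were not chosen for low levels in emerin and include genes raised there, such as the muscle sheath list (median log2 fold change 2.23). The germ line and oocyte polarity lists, with no member in the set, had medians of -0.73 and -0.85. Nothing particular to the set is therefore read from this difference.

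**Figure D5:**
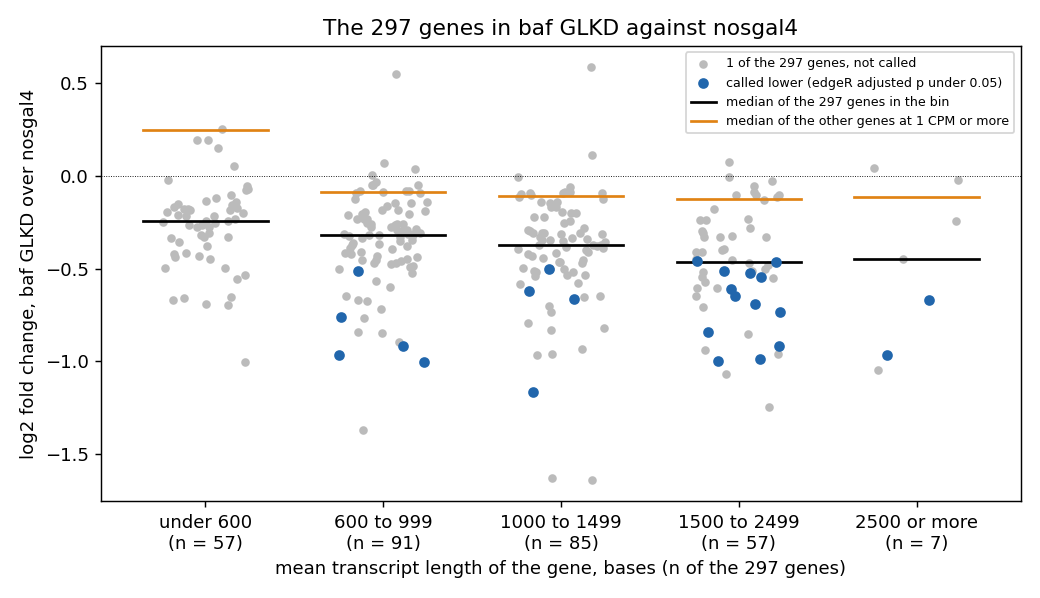
Log2 fold change of each of the 297 genes in baf GLKD against nosgal4 (points), in 5 bins of mean transcript length, with the 24 genes called lower in blue, the median of the set in black and that of the other expressed genes in orange. The black bars lie between -0.46 and -0.25, below the orange bars in each bin.

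The libraries fall into a pair of sets that differ in how the deposited tables relate, since in 7 of the 18 libraries the gene table totals far more than the transcript table of the same library. These were 4 of the 7 wild-type libraries, 1 of the 4 emerin libraries, 1 each of nosgal4 and baf GLKD and none of chk2, emerin. Within the set whose tables match, with 3 wild-type, 3 emerin and 3 chk2, emerin libraries, the median of the 297 genes was 62.7% of wild type in emerin and 68.8% in chk2, emerin. In the other set, the single emerin library was at 57.5%. In nosgal4 the medians were 101% within the first set and 75.8% within the second, and in baf GLKD they were 78.8% and 76.9%.

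On the chromosomes, the 297 genes were spread over all arms. Arm 2R held 81 of them (27.3%), against 20.4% of expressed genes, and the X held 45, 2L 55, 3L 50, 3R 64 and the fourth chromosome 2. Within 1000 kb of Ote on 2R lay 9 of 207 expressed genes (4.35%), the nearest being CG42518 at 109 kb and GstE6 at 130 kb. GstE6 had 76.6, 86.2 and 162 CPM in wild type, 51.4 and 29.0 CPM in emerin G/PI, 28.9 and 34.1 CPM in emerin G/PK and 61.4, 52.5 and 58.1 CPM in chk2, emerin. Its emerin libraries were below its chk2, emerin libraries, and both were below wild type.

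Runs, in which the starts of 3 or more genes of the set lay within 100 kb, with overlapping windows joined, were found at 10 places. The run with the most genes of the set lay on 2L from 8308427 to 8437996 (dm6 coordinates) and held 7 of the 31 expressed genes there, Mettl14, RpS13, CSN8, CG17292, CG13392, CG31898 and Chrac-14. Mettl14, a subunit of the RNA methyltransferase for N6-methyladenosine, stands at 8308427 to 8309961 and had 21.4, 23.6 and 26.7 CPM in wild type, 18.4 and 16.7 CPM in emerin G/PI, 20.3 and 17.6 CPM in emerin G/PK and 19.5, 20.5 and 18.1 CPM in chk2, emerin. CSN8, a subunit of the COP9 signalosome, stands at 8364855 to 8365663, next to RpS13, and had 38.01, 48.8 and 78.8 CPM in wild type, 16.5 and 30.5 CPM in emerin G/PI, 30.4 and 28.4 CPM in emerin G/PK and 26.7, 31.9 and 31.5 CPM in chk2, emerin. The reduction in this run ranged from that of Mettl14, at 79.5% of wild type, to that of CG31898, at 49.7%. Further runs were CtsL4, gny and Ip259 on 2L, CG30001, Ntmt, CG12744 and Pdrg1, Polr2K, CG8089, row and CG11808, mrj, CG30100, CG42372 and CG4282, and CG5339, CG34213, or and Not11 on 2R, msd1, msd5 and CG9166 on 3L, Cbp20, CG7215, CG14314, mTerf5 and Ada2a, and nenya, CG4884 and CG42487 on 3R, and e(y)2 with the 3 pseudogenes on X. CG4884 and CG42487 have the same coordinates, as do CG30100 and CG42372, and the 3 pseudogenes count as a single measurement. The runs that hold them thus have fewer separate loci or measurements than genes. Whether 10 runs are more than chance would give was not tested.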

How the data were processed

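RNA from about 100 pairs of ovaries per library was sequenced in 18 libraries, which the authors describe as independent biological isolates. Paired reads were cleaned by the authors in Trim Galore (0.6.6 in the submitters' processing notes) and quantified with kallisto 0.46.1 on the BDGP6.32 (dm6) transcriptome. The authors deposited, per library, estimated counts and TPM per transcript with transcript lengths, and a table of estimated counts per gene made with tximeta. The deposited gene values are whole numbers, not scaled for depth. Totals per library were 18138657 to 28372959, median 23468848, so that 1 count was worth 0.0352 to 0.0551 CPM. In 7 libraries the gene table totalled 7.42 to 18.9 times the transcript table. The paper's methods give fewer CS samples than the table, and all 4 were used. No columns were left unused.

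Genes were kept for testing with 10 or more counts over all libraries (12762 tested, 1475 left out). The comparison of baf GLKD with nosgal4 used edgeR 4.0.16 (TMM, quasi-likelihood) in R 4.3.3 on all 18 libraries with Benjamini-Hochberg adjustment over all genes at 0.05, after the code was tested on simulated data. DESeq2 1.42.0, other scalings and filters, other groupings, a replicate block and the omission of each library were alternatives. The length trend was taken out of log2(CPM + 0.5) with lowess (span 0.3, statsmodels 0.14.6). Symbols and positions came from the BDGP6.54 annotation (14194 genes), also on dm6, and lengths from the transcript tables (14182 genes).

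The members and all lists were chosen with earlier results of these data known. The lists were nuclear lamina, DNA damage checkpoint, meiosis, oocyte polarity, p53 and irradiation response, JNK, and markers of germ line, escort, follicle, muscle, hemocyte, fat body, neuron, trachea, gut, antimicrobial and Y-linked genes. Genes were named by rule: the 10 with the highest wild-type CPM and the 10 most reduced at 5 CPM or more, the 5 with the smallest adjusted p in baf GLKD in each direction, list members, the 3 just inside and outside the rule, the 3 nearest Ote and lok, runs of 3 or more, and the 3 most different between emerin and chk2, emerin each way. Family members, CycC, CycK, Spc25, Yeti, tko, HipHop and those stated as such were named after their values were seen. The 10 with the highest CPM are covered by the account of ribosomal proteins. The library values of 1 of these 10 are not reported here.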

Additional observations from a re-analysis of the deposited data

Results flagged for a closer look

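In 20 of 160 groups of 4 or 7 libraries examined for named genes, 1 library stood apart from the rest. Chance alone marks about 1 in 20 groups when they are independent. These groups are the same libraries over many genes, so no excess over chance is read from the count. Among the 7 CS and yw libraries, yw 1 was the highest, with 5194 CPM for RpL15, 62.8 for Corp, 121 for CG11279, 67.4 for Rrp47, 103 for mRpS28, 61.3 for Chrac-14, 51.9 for CtsL4, 56.7 for Ntmt, 19.4 for CG11808, 36.9 for msd5, 42.9 for e(y)2 and 172 for baf, a gene outside the set. CS 2 stood apart with 7.8 CPM for CG31898. Among the 4 emerin libraries, emerin G/PI 1 stood apart with 120 CPM for lok, 19.5 for CG43954, 16.5 for CSN8, 40.8 for CG5339 and 3.03 for CG34213. Emerin G/PI 2 stood apart with 25.6 CPM for Rrp47, and emerin G/PK 1 with 26.9 CPM for CG17292.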

How the results depend on the processing

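The number of genes that met the rule was 297 in CPM, 181 with RLE scaling, 183 with counts summed from the transcript tables, 31 with TPM and 131 with the length trend removed, the last added after the data were seen. It was 652 against CS alone, 1007 against yw alone and 190 with nosgal4 as a further reference, and 299 to 431 when each library was left out in turn. Fewer reference libraries make the rule easier to meet by construction, and the cause of the other differences was not tested.

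Genes of the set called lower in baf GLKD numbered 24 (8.08%, against 8.28% of all genes tested), and 14 with RLE (4.71% against 5.88%), 9 with library size only (3.03% against 3.48%), 53 with strains and emerin pairs as separate groups (17.8% against 11.9%), 33 with DESeq2 (11.1% against 9.09%), and 0 to 6 without each of the 4 libraries (0.700% to 3.55% of all genes tested). None was called higher under any of these. The count above all libraries without emerin in nosgal4 was 192 to 288, and that lower in both libraries of baf GLKD 124 to 230, when single libraries were left out.

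With a replicate block the count called lower was 17 (5.72%, against 7.77% of all genes tested), all among the 24. With 2 pairs, which share only a number, the deviations of same-numbered nosgal4 and baf GLKD libraries correlated at 0.411. For 84 named genes, 993 of 1092 values of the baf GLKD difference kept their direction and side of the threshold, 49 lost and 17 gained significance, and 33 values in 20 genes changed sign, with no call in either fit. With library size only these log2 values were 0.0053 for RpL32, 0.0047 for RpL36, 0.10 for RpL36A, 0.15 for CG43954, 0.080 for Hs2st, 0.071 for Mettl14, 0.041 for CG4282, 0.038 for CG34213, 0.070 for or and 0.0014 for e(y)2, and 0.080 for CR43211, CR43213 and CR43216. For CG43954 they were 0.047 with RLE and 0.047 with DESeq2. When each of the 4 libraries was left out in turn they ran from -0.37 to 0.037 for RpS15, -0.41 to 0.15 for RpL32, -0.46 to 0.17 for RpL36A, -0.18 to 0.13 for CG43954, -0.67 to 0.11 for CG42518, -0.20 to 0.034 for Hs2st, -0.62 to 0.028 for CG17343, -0.26 to 0.080 for Mettl14, -0.50 to 0.17 for RpS13, -0.35 to 0.063 for or, -0.085 to 0.37 for msd1, -0.56 to 0.080 for Cbp20, -0.32 to 0.47 for Ada2a and -0.70 to 0.15 for e(y)2. Depth limits genes near 1 CPM, where 1 count is worth 0.0352 to 0.0551 CPM.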
